A study of Homo sapiens with 6 samples.

Results

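Lipid droplet genes were followed in RNA sequencing of CFPAC1 cells, an established human pancreatic ductal adenocarcinoma cell line. The set held 10 genes chosen by name out of 19402 in the count table: the perilipins PLIN1 to PLIN5, the lipolysis genes PNPLA2, ABHD5 and MGLL, and the triacylglycerol synthesis genes DGAT1 and DGAT2. It was drawn up with the PLIN2 difference between the groups already known, so the differences of these genes between the groups are given as a description with no p-value, and nothing is read from how many of them a fit over all genes called. The 6 libraries came from 3 pools of genome-edited clones labelled IRF1-KO, made with a lentiviral vector carrying Cas9 and a guide against IRF1, and 3 pools of WT clones, isolated by dilution from cells infected with the same vector and with no guide named. Both kinds of cells were grown in IMDM with fetal bovine serum, L-glutamine and antibiotics, and the labels name no interferon treatment for them. IRF1 is an interferon-induced transcription factor, and the comparison asked how its loss changes the transcripts of these cells. Pools of clones average over clones, so a higher level in every cell and a larger share of cells with a high level cannot be told apart.

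Lipid droplets store neutral lipids, mainly triacylglycerols and sterol esters, inside a single layer of phospholipids. DGAT1 and DGAT2 make triacylglycerol in its last step, and perilipins coat the droplet and control access of lipases to it. PNPLA2 (also called ATGL) removes the first fatty acid, ABHD5 (also called CGI-58) activates PNPLA2, and MGLL cleaves the last fatty acid from the glycerol. PLIN2 coats droplets in most tissues, and its protein is broken down when no droplet binds it. PLIN1 and PLIN4 are known mainly from adipocytes, PLIN5 from muscle, heart and liver, and PLIN3 is found in most cells.

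Total counts ranged from 16413682 to 28258075 in the libraries labelled IRF1-KO and from 18394715 to 21003927 in the WT libraries. The targeted gene IRF1 had 117, 123 and 132 CPM (counts scaled to library size with TMM factors) in the libraries labelled IRF1-KO, against 87.3, 91.3 and 82.6 CPM in the WT libraries. Counts summed over a whole gene say little about a short Cas9 edit, so the knockout could not be checked from them, and every direction given here is that of the libraries so labelled. Of 9 ductal epithelial markers, 8 were above 1 CPM in every library, and CFTR was not, at 0.0375 to 0.657 CPM. Their sum was 5047 to 6957 CPM in libraries labelled IRF1-KO and 4438 to 7580 CPM in WT libraries. The lowest sum was that of WT replicate 3, which was below both other WT libraries for 8 of the 9 markers. CDH1 had 107.2 CPM there, against 498.9 and 378.03 CPM in WT replicates 1 and 2, and KRT7 157.3 CPM, against 508.3 and 479.7 CPM. EPCAM had 197.0 CPM there, against 424.1 and 413.99 CPM, and MUC1 130.6 CPM, against 395.7 and 532.3 CPM. Of 6 adipocyte markers, ADIPOQ and RETN had no count in any library, and LEP had at most 1 count. CFD and GPD1 stayed below 1 CPM, but LEPR was at 21.2 to 34.6 CPM. The summed level of 6 macrophage markers was 2.44 to 3.45 CPM in libraries labelled IRF1-KO and 1.69 to 2.74 CPM in WT libraries. For 6 fibroblast markers it was 35.2 to 76.4 CPM and 32.4 to 50.04 CPM in the same order, mostly COL1A1, and for 6 adipocyte markers 25.9 to 33.4 CPM and 22.2 to 35.8 CPM, mostly LEPR. Libraries also differed with GC content: the 477 tested genes over 65% GC stood at a median of 0.10, 0.46 and 0.31 log2 units above their own mean over the 6 libraries in replicates 1 to 3 labelled IRF1-KO, and at −0.59, −0.13 and −0.10 in WT replicates 1 to 3.

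The stretches before the start sites of 3 members show what sequence precedes the perilipin and lipase genes that the results turn on. PLIN2 and PNPLA2 are shown because their libraries did not overlap between the groups, and PLIN3 because it was the most abundant perilipin. Each runs 5′ to 3′ over the 250 bases before the RefSeq start (GRCh38.p14), with any match to a searched motif in capitals.
PLIN2 (chr9:19127493-19127742, minus strand): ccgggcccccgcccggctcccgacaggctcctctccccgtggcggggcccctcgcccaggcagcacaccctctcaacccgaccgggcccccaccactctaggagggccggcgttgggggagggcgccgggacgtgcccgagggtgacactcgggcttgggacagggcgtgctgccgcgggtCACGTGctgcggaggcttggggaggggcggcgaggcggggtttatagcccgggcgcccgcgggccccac
PLIN3 (chr19:4867668-4867917, minus strand): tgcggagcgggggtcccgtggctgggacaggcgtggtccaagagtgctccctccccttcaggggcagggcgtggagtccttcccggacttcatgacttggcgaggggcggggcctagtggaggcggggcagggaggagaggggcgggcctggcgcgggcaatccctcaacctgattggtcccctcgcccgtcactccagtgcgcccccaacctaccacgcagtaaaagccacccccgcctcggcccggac
PNPLA2 (chr11:818664-818913, plus strand): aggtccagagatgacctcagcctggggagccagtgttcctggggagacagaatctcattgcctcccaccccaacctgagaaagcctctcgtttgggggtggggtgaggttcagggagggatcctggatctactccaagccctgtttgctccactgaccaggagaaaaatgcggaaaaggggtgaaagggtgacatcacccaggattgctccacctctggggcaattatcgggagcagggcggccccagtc
The PLIN2 stretch was 78.0% GC, against 70.8% for PLIN3 and 58.4% for PNPLA2. It held 1 E-box (CACGTG, a palindrome, so the same on both strands), which starts 69 bases before the gene's start. An E-box was present in 6.32% of 34943 stretches of the same length before RefSeq starts. The core of the interferon-stimulated response element, the kind of site that IRF proteins bind (GAAA, then 2 bases of any kind, then GAAA, on both strands), was present in 3.02% of all stretches and in none of the 9 stretches of the 7 members that could be matched, which were ABHD5, PLIN1, PLIN2, PLIN3, PLIN4, PLIN5 and PNPLA2. A direct repeat of the kind that PPAR receptors bind (AGGTCA, then 1 base of any kind, then AGGTCA, on both strands) was found in 0.0172% of all stretches and in none of these 9. No match says only that these letters are not in these windows. In the count table the PLIN2 gene reaches further upstream, to position 19149290, through exons of other transcripts.

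PLIN3 was the most abundant of the 10 transcripts per length, and 3 perilipins were close to absent. Levels were compared between genes as CPM per kb of exon. The divisor is the summed exon length of the gene, 2739 bases for PLIN3, 5011 for PLIN2 and 11849 for MGLL. It need not be the length of the expressed transcript, so the order depends on it. In CPM alone MGLL was highest, at 168.9 to 252.5 CPM over the 6 libraries, against 83.2 to 117.8 CPM for PLIN3. PLIN3 had 36.9, 39.3 and 43.0 CPM per kb in replicates 1 to 3 labelled IRF1-KO, and 30.4, 34.3 and 37.6 CPM per kb in WT replicates 1 to 3. Its median over the 6 libraries, 37.3 CPM per kb, was above that of 91.5% of tested genes and 2.09-fold above the next member, with no overlap of their ranges.
MGLL (median 17.8 CPM per kb) and PLIN2 (13.6) followed, and their ranges over the 6 libraries overlapped. PNPLA2 (7.20) also overlapped with both PLIN2 and DGAT1 (5.60). ABHD5 (3.77) was below DGAT1 and above DGAT2 (1.58) with no overlap. DGAT2 was 14.0-fold above PLIN5 (0.113), which overlapped with PLIN4 (0.0938), and PLIN4 with PLIN1 (0.0605). The order was thus PLIN3 in the lead, then MGLL, PLIN2, PNPLA2, DGAT1 and ABHD5, with DGAT2 below them and 3 perilipins at the floor.

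**Figure D1:**
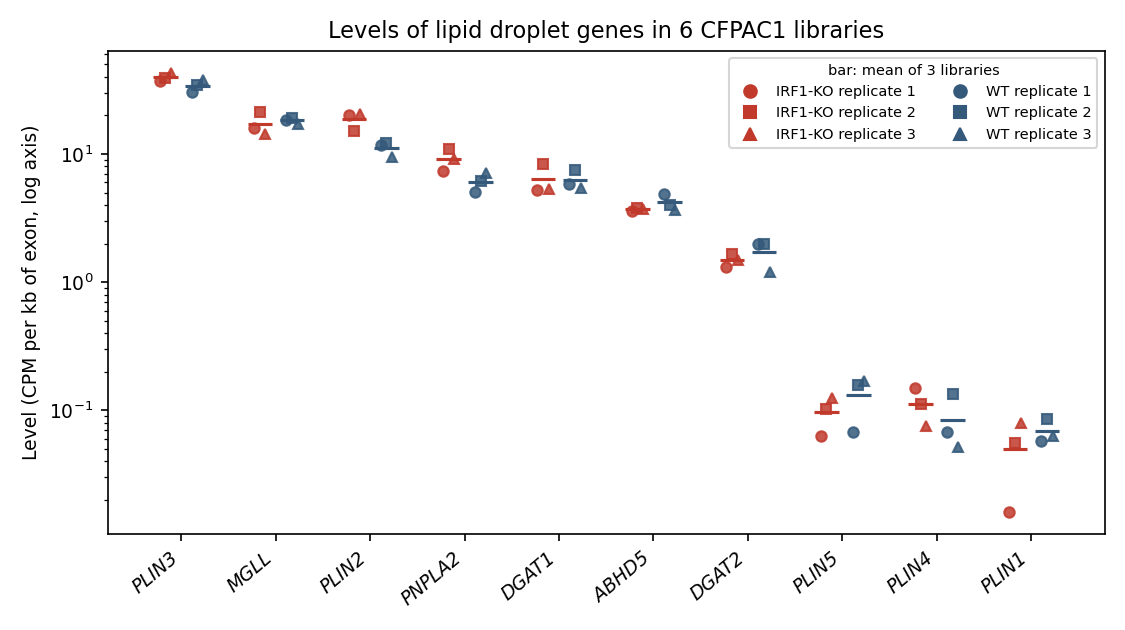
Level of each member in CPM per kb of exon (log axis), ordered by the median over the 6 libraries, with libraries labelled IRF1-KO in red to the left and WT libraries in blue to the right of each gene. Points are single libraries and horizontal lines the means of 3. PLIN3 is highest with a median of 37.3 CPM per kb, and PLIN5, PLIN4 and PLIN1 lie below 0.2 CPM per kb in every library.

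PLIN2, the droplet coat protein of most tissues, was higher in every library labelled IRF1-KO than in every WT library. PLIN2 (ENSG00000147872.10, GRCh38 chromosome 9, 19108375 to 19149290, minus strand) had 1644, 2180 and 2755 counts in replicates 1 to 3 labelled IRF1-KO and 1072, 1112 and 979 counts in WT replicates 1 to 3. Scaled, these were 100.2, 76.1 and 103.2 CPM in the libraries labelled IRF1-KO, against 58.7, 60.5 and 47.1 CPM in the WT libraries. Replicate 2 labelled IRF1-KO lay nearest to the WT range and WT replicate 3 was the lowest of all.
The means were 93.2 ± 14.9 CPM in libraries labelled IRF1-KO and 55.4 ± 7.28 CPM in WT libraries (SD, n = 3 each), a fitted fold of 1.68 (log2 fold change 0.75 ± 0.16, SE). Counting error was at most 3.2% of a PLIN2 count, so other spread between libraries, from pools or from technical steps, was the larger part. The PLIN2 transcript is 48.9% GC, near the median of 48.5% of tested genes, and the 4475 tested genes within 5 points of it had a median log2 fold change of −0.04. With a correction for GC content the PLIN2 difference was 0.81 ± 0.15. Left out in turn, the 6 libraries gave values from 0.67 to 0.88, the lowest without replicate 3 labelled IRF1-KO or without WT replicate 3, the library with the lowest sum of epithelial markers.

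PLIN3, a relative of PLIN2 that is stable without droplets, had a smaller fitted difference. It had 101.1, 107.7 and 117.8 CPM in replicates 1 to 3 labelled IRF1-KO and 83.2, 93.8 and 103.0 CPM in WT replicates 1 to 3. WT replicate 3 lay above replicate 1 labelled IRF1-KO, so the groups overlapped. The log2 fold change was 0.22 ± 0.12 (SE), and it was 0.22 ± 0.13 with the GC correction.
The 5 perilipins summed to 57.2, 54.8 and 63.9 CPM per kb in the libraries labelled IRF1-KO, against 42.3, 46.7 and 47.3 CPM per kb in the WT libraries. PLIN2 made up 35.0%, 27.7% and 32.2% of that sum in replicates 1 to 3 labelled IRF1-KO and 27.7%, 25.8% and 19.9% in WT replicates 1 to 3, with replicate 2 labelled IRF1-KO and WT replicate 1 equal to 3 digits. PLIN3 made up nearly all of the rest, with a mean of 67.9% in libraries labelled IRF1-KO and 74.9% in WT libraries. These shares depend on the summed exon lengths, 5011 bases for PLIN2 and 2739 bases for PLIN3. Without division by length, PLIN2 and PLIN3 averaged 93.2 and 108.9 CPM in libraries labelled IRF1-KO. In WT libraries they averaged 55.4 and 93.4 CPM.

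The perilipins of adipocytes and muscle were counted so rarely that no difference could be read. PLIN1 had 1, 6 and 8 counts in replicates 1 to 3 labelled IRF1-KO and 4, 6 and 5 counts in WT replicates 1 to 3, and was left out of the fit by the filter on low counts. PLIN4 had 16, 21 and 13 counts in libraries labelled IRF1-KO and 8, 16 and 7 in WT libraries, with a log2 fold change of 0.40 ± 0.50 (SE). PLIN5 had 5, 14 and 16 counts in libraries labelled IRF1-KO and 6, 14 and 17 in WT libraries, with a log2 fold change of −0.43 ± 0.49. For all 3 the groups overlapped, and the counting error of the smallest count of PLIN4 and PLIN5 was 37.8% and 44.7%. PLIN4 shares 29 exon bases with HDGFL2 on the opposite strand.

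**Figure D2:**
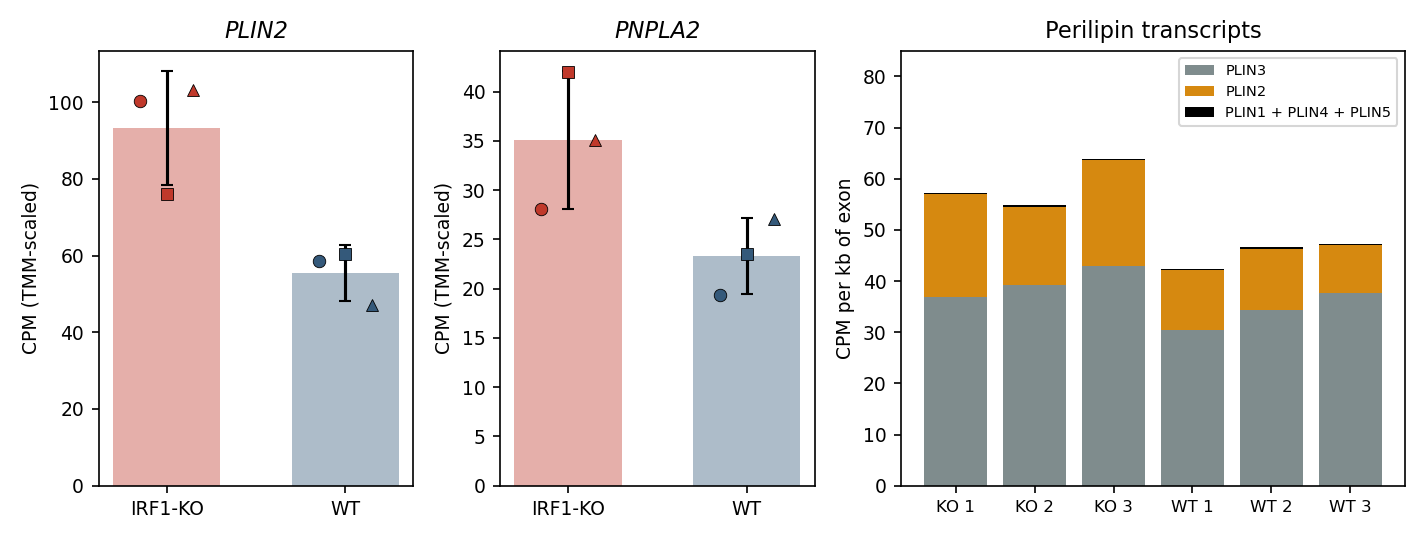
PLIN2 and PNPLA2 in TMM-scaled CPM (left and middle), with bars for the mean of 3 libraries, error bars for the SD and points for single libraries, and the summed perilipin transcripts of each library in CPM per kb of exon (right). PLIN2 averages 93.2 CPM in libraries labelled IRF1-KO and 55.4 CPM in WT libraries, and PLIN3 is the larger part of the perilipin sum in every library.

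PNPLA2, the lipase that starts triacylglycerol breakdown, was the other member whose groups did not overlap. It had 28.0, 42.0 and 35.1 CPM in replicates 1 to 3 labelled IRF1-KO and 19.4, 23.6 and 27.1 CPM in WT replicates 1 to 3. The gap was narrow, since replicate 1 labelled IRF1-KO was just above WT replicate 3. The means were 35.1 ± 6.99 and 23.3 ± 3.87 CPM in libraries labelled IRF1-KO and WT libraries (SD, n = 3 each), a log2 fold change of 0.59 ± 0.19 (SE).
The PNPLA2 transcript is 64.9% GC, the highest of the 10 members, and the 2010 tested genes within 5 points of it had a median log2 fold change of 0.24. Its lowest library, WT replicate 1, and its highest, replicate 2 labelled IRF1-KO, were also the lowest and highest for GC-rich genes in general. With the correction for GC content the log2 fold change of PNPLA2 was 0.21 ± 0.13, a fold of 1.16. The correction takes out any group difference that follows GC content, so a library effect and a biological difference along that axis cannot be told apart.

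ABHD5, the activator of PNPLA2, had overlapping groups. ABHD5 had 27.1, 28.7 and 28.2 CPM in replicates 1 to 3 labelled IRF1-KO and 37.0, 30.4 and 27.4 CPM in WT replicates 1 to 3, so that WT replicate 3 lay inside the range of the other group. Its log2 fold change was −0.17 ± 0.14 (SE), and its spread was 2.80% of the mean in libraries labelled IRF1-KO and 15.6% in WT libraries. The ratio of PNPLA2 to ABHD5 in CPM per kb was 2.04, 2.89 and 2.45 in libraries labelled IRF1-KO, against 1.03, 1.53 and 1.95 in WT libraries. ABHD5 is the least GC-rich member at 37.5%, so this ratio carries the difference in GC content between the genes. ABHD5 shares 170 exon bases of 7549 with ANO10 on the opposite strand.
MGLL, the monoacylglycerol lipase, had 188.8, 252.5 and 168.9 CPM in replicates 1 to 3 labelled IRF1-KO and 218.5, 226.4 and 203.4 CPM in WT replicates 1 to 3. The highest and the lowest of the 6 libraries were both labelled IRF1-KO. The log2 fold change was −0.09 ± 0.16 (SE), and the spread was 21.5% of the mean in libraries labelled IRF1-KO and 5.43% in WT libraries.

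The acyltransferases that complete triacylglycerol showed no separation of the groups. DGAT1 had 21.6, 34.6 and 22.1 CPM in replicates 1 to 3 labelled IRF1-KO and 23.9, 30.7 and 22.4 CPM in WT replicates 1 to 3, with replicate 2 the highest in both groups. Its log2 fold change was 0.03 ± 0.22 (SE) and −0.24 ± 0.17 with the GC correction, the transcript being 63.2% GC. DGAT1 shares 137 exon bases with HSF1 on the opposite strand. DGAT2 had 10.4, 13.2 and 11.8 CPM in libraries labelled IRF1-KO and 15.6, 15.6 and 9.47 CPM in WT libraries, with WT replicate 3 the lowest of all. Its log2 fold change was −0.20 ± 0.23. In every library DGAT1 was above DGAT2 per length, with ratios of 3.98, 5.03 and 3.58 in libraries labelled IRF1-KO and 2.93, 3.77 and 4.53 in WT libraries.

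The members are set beside all genes here as a description, with PLIN4 and PLIN5 counted although no difference could be read for them. Of the 9 tested members 5 had a positive and 4 a negative log2 fold change, with a median of 0.03, beside a median of −0.02 over all 13388 tested genes, of which 6247 were positive. With the GC correction 4 of the 9 were positive with a median of −0.09, beside 6802 of all tested genes and a median of 0.0035. No member was past an adjusted p of 0.05 with the edgeR quasi-likelihood test and Benjamini-Hochberg adjustment over all tested genes, a threshold that 0.127% of tested genes passed. DESeq2 called 1 member, PLIN2, as higher and none as lower, while it called 1.55% of 13122 genes higher and 0.983% lower. With edgeR at an unadjusted p of 0.05, 2 members, PLIN2 and PNPLA2, were called higher and none lower, beside 5.39% and 3.75% of tested genes. The same 2 members were above every WT library in every library labelled IRF1-KO, as were 8.03% of tested genes, and none was below in every library, as were 6.75%. Since PLIN2 was chosen with this contrast known, nothing is read from these counts. The fitted value of PLIN2 was higher than that of 96.5% of tested genes and that of PNPLA2 higher than 94.6%. For the same reason nothing is read from these ranks. Both the count and the rank of PNPLA2 are those without the GC correction, with which its log2 fold change was 0.21 ± 0.13.

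**Figure D3:**
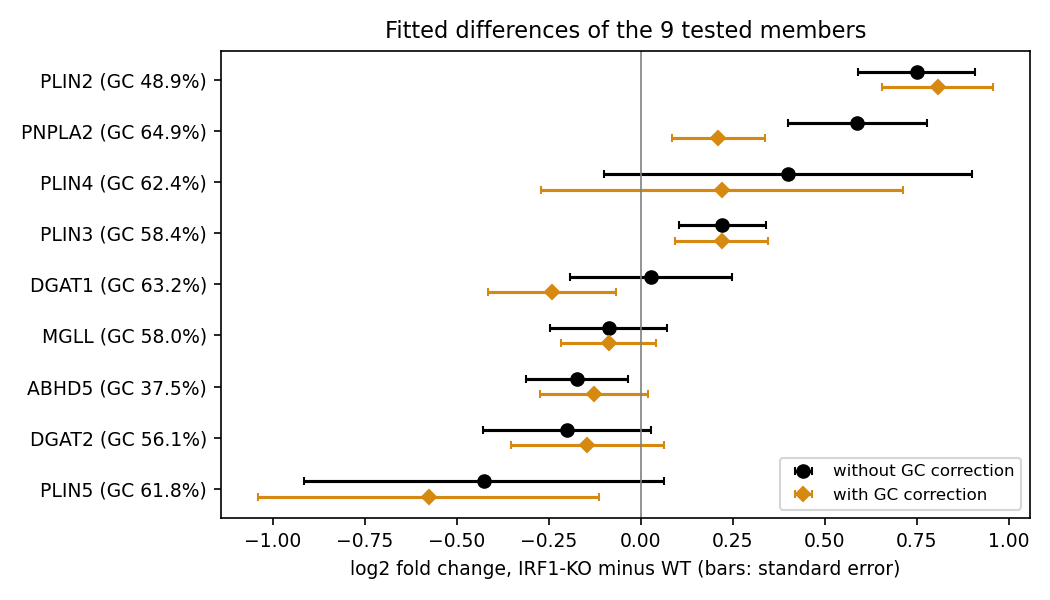
Fitted log2 fold change of the 9 tested members, libraries labelled IRF1-KO minus WT libraries, without (black) and with (orange) a correction for GC content, and with standard errors as bars. The value of PLIN2 is 0.75 without and 0.81 with the correction, whereas that of PNPLA2 is 0.59 without and 0.21 with it.

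Among the pools labelled IRF1-KO, the place of replicate 2 varied from member to member. It was the lowest of the 3 for PLIN2, at 76.1 CPM against 100.2 and 103.2 CPM in replicates 1 and 3. It was the highest of the 3 for PNPLA2, MGLL, DGAT1 and DGAT2, whose transcripts are 56.1% to 64.9% GC. By a small margin it was also the highest for ABHD5, at 37.5% GC. It was not the highest for PLIN1, PLIN3, PLIN4 or PLIN5, at 55.8% to 62.4% GC. How often replicate 2 was the highest over all genes was not counted, so nothing about the members is read from these places. The same library was the highest for GC-rich genes in general, at 0.46 log2 units. The part of this in the order of the members was not tested. G0S2, an inhibitor of PNPLA2 and given after its values were seen, also had its highest level there, with 9.27, 45.1 and 13.8 CPM in replicates 1 to 3 labelled IRF1-KO and 8.65, 13.9 and 10.4 CPM in WT replicates 1 to 3. The log2 fold change of G0S2 was 1.06 ± 0.58 (SE) with all libraries and 0.08 without replicate 2 labelled IRF1-KO.

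The genes whose pattern over the 6 libraries was most like that of PLIN2 were CHKA, CMC2, SLC9A3, EEF1E1 and SPRING1. Likeness was Pearson's r of log2 CPM, taken over 6 libraries and 10995 other genes with a mean of at least 5 CPM, and is a description, since the highest values were picked and the group difference of PLIN2 enters them. CHKA, a choline kinase of phosphatidylcholine synthesis, had an r of 0.99. It had 118.5, 105.3 and 120.3 CPM in replicates 1 to 3 labelled IRF1-KO and 98.2, 100.4 and 88.0 CPM in WT replicates 1 to 3, so that the libraries stood in the same order as for PLIN2, over a smaller range (log2 fold change 0.26 ± 0.11, SE). The other 4 had r of 0.97: the mitochondrial protein gene CMC2, the sodium-hydrogen exchanger gene SLC9A3, EEF1E1 of the tRNA synthetase complex and SPRING1, which is needed for SREBP activation. Their log2 fold changes were 0.17 ± 0.10, 0.59 ± 0.16, 0.29 ± 0.10 and 0.23 ± 0.10. Among the members, PLIN3 (r = 0.55) and PNPLA2 (r = 0.52) were most like PLIN2, and MGLL (r = −0.50) was least like it. Yet PLIN3 and PNPLA2 ranked only 1361 and 1587 among the 10995 genes. PLIN1, PLIN4 and PLIN5 were too low to be compared.

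The wider droplet and fatty acid genes were counted in 6 lists of 103 genes, of which 80 were tested. None was past an adjusted p of 0.05 with edgeR, where 0.127% of all tested genes were, and at an unadjusted p of 0.05 there were 2 higher and 4 lower, beside 5.39% and 3.75% of all tested genes. With DESeq2, AGPAT2 was called higher and ACSL5 lower, where 1.55% and 0.983% of all genes were. In every library labelled IRF1-KO, 3 of the 80 were above and 6 below every WT library, beside 8.03% and 6.75% of all tested genes. Of the 80 values 35 were positive and 45 negative, with a median log2 fold change of −0.04, and 0.01 with the GC correction.

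Triacylglycerol synthesis held the gene with the lowest value of all 6 lists, GPAT2, and the 2 list genes that DESeq2 called. Of its 17 tested genes none passed with edgeR, at an unadjusted p of 0.05 there were 1 higher and 3 lower (5.39% and 3.75% over all genes), and the median was −0.03. AGPAT2, which makes phosphatidic acid, had the smallest p of the list. It had 19.9, 20.6 and 24.6 CPM in replicates 1 to 3 labelled IRF1-KO and 7.28, 11.5 and 14.0 CPM in WT replicates 1 to 3, with no overlap. Its log2 fold change was 0.99 ± 0.24 (SE, adjusted p = 0.213 with edgeR; 0.0136 to 0.576 over the alternatives) and 0.57 ± 0.18 with the GC correction, the transcript being 65.9% GC.
ACSL5, a long-chain acyl-CoA synthetase, was the most abundant gene of the list per length. It had 209.7, 265.1 and 346.6 CPM in libraries labelled IRF1-KO and 480.8, 486.4 and 374.2 CPM in WT libraries, again with no overlap. Its log2 fold change was −0.71 ± 0.20 (SE, adjusted p = 0.292 with edgeR; 0.0342 to 0.689 over the alternatives) and −0.67 ± 0.20 with the GC correction, at a transcript GC content of 44.8%. ACSL1, given after its values were seen, had a value of −0.35 ± 0.15, and GPAT2, a low-level acyltransferase gene given likewise, one of −1.30 ± 0.40.

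Genes of droplet assembly, of which 15 of 20 were tested, had a median of −0.06. At an unadjusted p of 0.05, 1 was lower, as were 3.75% of all tested genes, and none was past the adjusted threshold with edgeR or DESeq2. The smallest p was that of VPS13C, a lipid transfer protein, with 87.6, 92.3 and 79.6 CPM in libraries labelled IRF1-KO and 106.8, 147.4 and 111.3 CPM in WT libraries (log2 fold change −0.49 ± 0.15, SE; edgeR adjusted p = 0.315, and 0.0969 to 0.703 over the alternatives). AUP1 was the most abundant of them per length, at −0.06 ± 0.12, and BSCL2, which encodes the droplet-forming protein seipin and was named with its values known, had −0.05 ± 0.13. Of the untested genes, CIDEA and CIDEC were named with their values known: CIDEA, a droplet fusion gene of fat tissue, had no count in any library and CIDEC had 31 counts in all.

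Lipolysis genes other than the members had a median of 0.02 over 12 tested genes, with none at an unadjusted p of 0.05. HILPDA, a hypoxia-induced inhibitor of PNPLA2, had the smallest p, with 7.99, 9.63 and 10.1 CPM in libraries labelled IRF1-KO and 15.7, 14.3 and 8.99 CPM in WT libraries. WT replicate 3 lay among the libraries labelled IRF1-KO, and the log2 fold change was −0.48 ± 0.24 (SE). LIPA, the acid lipase of lysosomes and the most abundant of the list per length, had a value of 0.09 ± 0.14. LIPE, the hormone-sensitive lipase of fat tissue and named with its values known, was at 1.16 to 2.34 CPM in libraries labelled IRF1-KO and 0.766 to 1.41 CPM in WT libraries.

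Sterol ester genes had a median of −0.02 over 8 tested genes and none at an unadjusted p of 0.05. STARD3, a sterol transfer protein, had the smallest p at 0.22 ± 0.11 (SE), and NCEH1, a cholesteryl ester hydrolase and the most abundant of the list per length, was at 0.05 ± 0.10. Fatty acid uptake and binding genes had a median of −0.06 over 12 tested genes. In that list FABP5, a fatty acid carrier, had 25.6, 25.1 and 20.3 CPM in libraries labelled IRF1-KO and 16.7, 12.6 and 21.1 CPM in WT libraries. WT replicate 3 lay above replicate 3 labelled IRF1-KO, and the log2 fold change was 0.49 ± 0.21 (SE; edgeR adjusted p = 0.532, and 0.177 to 0.904 over the alternatives), the 1 gene of the list at an unadjusted p of 0.05. DBI, an acyl-CoA-binding protein and the most abundant there per length, was at −0.07 ± 0.14. The fatty acid receptor CD36 and the lipase LPL, untested and named with their values known, had 9 and 1 counts over the 6 libraries together.

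PLIN2 is known as a gene that fatty acids induce through PPAR receptors. The list of PPAR receptors, their partner RXRA, the coactivator PPARGC1A and genes they induce had a median of −0.01 over 16 tested genes, 8 positive and 8 negative, with none at an unadjusted p of 0.05. CPT2, of mitochondrial fatty acid import, had the smallest p at −0.29 ± 0.14 (SE), and HADHA, of fatty acid oxidation, was the most abundant per length at −0.07 ± 0.19. Given after their values were seen, the receptor genes were at −0.26 ± 0.27 for PPARA, 0.0022 ± 0.25 for PPARD and 0.05 ± 0.16 for PPARG, all with overlapping groups. PPARGC1A, picked as the highest value of the list, was at 0.98 ± 0.49. RXRA (63.2% GC), named likewise with its values known, was at 0.38 ± 0.20. The target genes PDK4, CPT1A and ANGPTL4, also named with their values known, were at −0.17 ± 0.38, −0.17 ± 0.11 and 0.51 ± 0.31. With the GC correction these were −0.11 ± 0.37, −0.10 ± 0.11 and 0.27 ± 0.27. The ANGPTL4 transcript is 63.3% GC, and its level was low, at 1.59 to 3.63 CPM over the libraries. Of the 16, 2 lay above every WT library in every library labelled IRF1-KO, ANGPTL4 among them, and 2 below, CPT2 and CPT1A. Over all tested genes these shares were 8.03% and 6.75%.

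**Figure D4:**
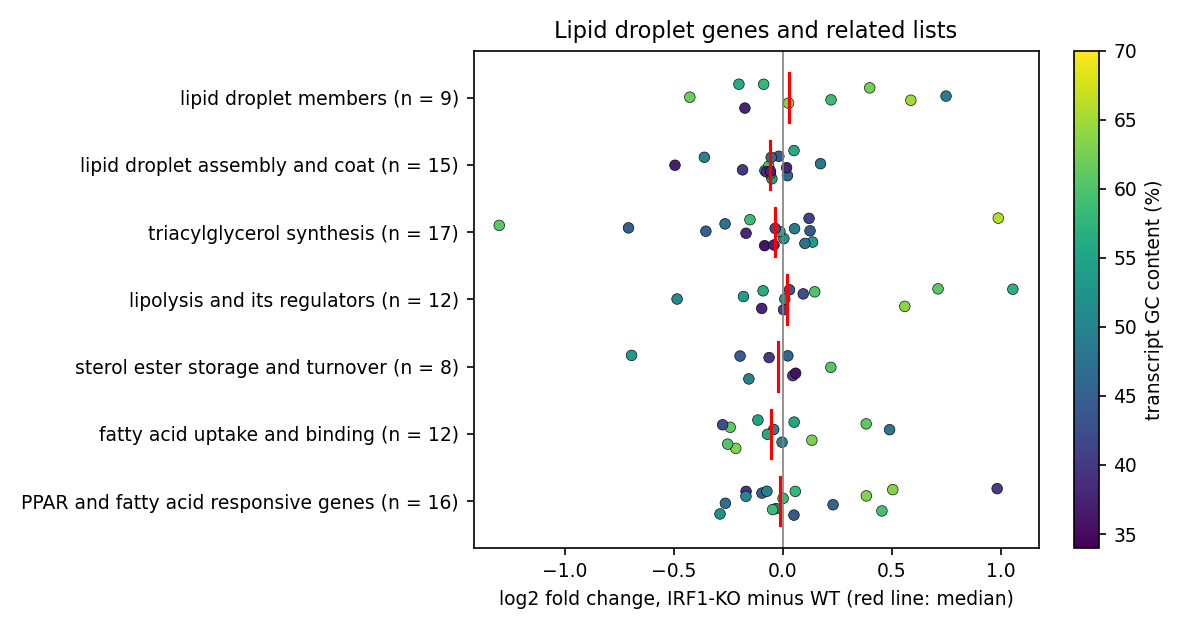
Fitted log2 fold change of each tested gene, libraries labelled IRF1-KO minus WT libraries, for the lipid droplet members and 6 related lists, coloured by the GC content of the transcript, with list medians as red lines. The medians lie between −0.06 and 0.03, and the highest values of the triacylglycerol synthesis and lipid droplet sets are those of AGPAT2 (0.99) and PLIN2 (0.75).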

How the data were processed

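RNA selected for poly(A) tails was sequenced in 6 libraries. The deposited file gives counts of reads per gene as whole numbers in the layout of featureCounts, per the file headers, with the summed exon length of each gene. The submitters' processing notes name featureCounts 0.6.1, edgeR 3.2.2 and GRCh38. Aligner, annotation and strand setting were not given in the sources used here, so reads of genes that overlap on opposite strands cannot be told apart.

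Counts were fitted in R 4.3.3 with edgeR 4.0.16 (filterByExpr, TMM factors, robust quasi-likelihood F test, Benjamini-Hochberg over 13388 genes). Standard errors follow from the F statistic. CPM are TMM-scaled, and a level per length is CPM divided by exon length in kb. GC content is that of the longest protein-coding transcript in GENCODE 29. The correction for it removes a natural spline with 5 degrees of freedom, fitted for every library to the deviations of genes from their means. Symbols were found for 19398 of 19402 identifiers. Alternatives also used DESeq2 1.42.0 and limma 3.58.1. Scripts were tested on simulated data.

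The members, lists and tests were chosen with earlier results of these data known. Named were the members, IRF1, the 5 genes most like PLIN2, and for each list any genes past the threshold, or else the gene with the smallest p, plus the most abundant gene per length. Other list genes were named after their values were seen, as the text says of each. Nothing in the labels says that pools were grown on separate occasions, so p-values reflect only the spread between them, which may be technical. Within groups, chi-square per degree of freedom between libraries was at least 27.1, so none agreed within sampling noise.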

Additional observations from a re-analysis of the deposited data

How the results depend on the processing

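PLIN2 stayed positive in all 15 alternatives, between 0.67 and 0.88 on the log2 scale. PLIN3, PLIN4, PNPLA2, PLIN5, ABHD5 and DGAT2 kept their sign in every alternative that gave a value. MGLL turned in 1, to 0.03, and DGAT1 in 5, with values down to −0.25. PLIN4 and PLIN5 gave no value under the stricter filter. The count of all genes past the threshold, 17, was 31 with no filter on low counts, 332 with DESeq2 and 3 to 91 without 1 library (3 without replicate 1 or without replicate 3 labelled IRF1-KO, 5 without WT replicate 2 and 91 without WT replicate 3). The count of members past it was 0, and 1 with DESeq2, and that of list genes was 0, and 2 with DESeq2. Without 1 library, both counts stayed at 0. Same-numbered libraries did not deviate together in every pair (correlations −0.0155, 0.253 and 0.0571), so the numbers were not taken as pairs. With the replicate number as a block the count of all genes was 31, and 11 with the block and the GC correction, and PLIN2 was at 0.75 and 0.80. The alternative over members was added after the data were seen. The cause of these differences was not tested.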
